A study of Mus musculus with 4 samples.

Results

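The miR-26 and miR-103/miR-107 families were followed in primary cultures of mouse cortical neurons. The members were the probes named for mmu-miR-26a, mmu-miR-26b, mmu-miR-103 and mmu-miR-107, 4 of the 1030 probes on the array that name a mouse miRNA. They were defined by name and not by their signals, but earlier results of these data were known when they were chosen. Neurons were taken from the cortex of E15 Swiss albino embryos, received no treatment, and were collected at Day 2, 4, 6 or 8 of culture. Total RNA of 4 experiments was pooled for each day and hybridised on 1 array per day, which leaves no measure of how cultures varied. Strain, embryonic age and medium were shared by all 4 days. Day 2, the youngest culture, was the common reference, so that the comparisons of the 3 later days share its array. The array of each day cannot be told apart from the day itself. Each probe also carries the human and rat name of the same miRNA, so it was not specific to mouse.

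A miRNA guides an Argonaute protein to messenger RNAs that pair with its seed, the short stretch near its 5′ end, and the bound messages are repressed. The miR-26 genes lie within the genes of the small C-terminal domain phosphatases (Ctdspl, Ctdsp2 and Ctdsp1), which act with the REST repressor to keep neuronal genes silent outside neurons, and in zebrafish miR-26b represses its own host ctdsp2 during neurogenesis. The miR-103 and miR-107 genes lie within the pantothenate kinase genes (Pank3, Pank2 and Pank1), whose enzymes start coenzyme A synthesis, and in human cells both miRNAs repress Dicer. Both families are broadly expressed in mammalian tissues, brain included.

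The mature sequences show what each probe was to capture and how little the 2 members of a family differ. All 4 were matched in RefSeq annotation of GRCm38.p6. They are written 5′ to 3′ with the seed, bases 2 to 8, in capitals.
mmu-miR-26a-5p: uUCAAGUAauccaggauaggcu
mmu-miR-26b-5p: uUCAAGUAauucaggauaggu
mmu-miR-103-3p: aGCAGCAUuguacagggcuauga
mmu-miR-107-3p: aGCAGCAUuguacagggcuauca

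The 2 members of each family have the same seed, and among 1679 mature mouse miRNA names in the annotation no other has either seed. Counted from 1 at the 5′ end, miR-26b differs from miR-26a by C11U and C21U over the 21 positions they share, and miR-26a has 22 bases against 21 in miR-26b. The 23-base miR-107 differs from miR-103 by G22C alone. Signals of a probe may therefore hold some of the other member of its family, which was not tested. The miR-26a probe reads 2 loci, chr9:119031811-119031832 (plus strand, within Ctdspl) and chr10:126995543-126995564 (plus strand, within Ctdsp2). miR-26b comes from chr1:74394324-74394344 (plus strand, within Ctdsp1). miR-103 is encoded at chr11:35782447-35782469 (plus strand, within Pank3) and at chr2:131288103-131288125 (plus strand, within Pank2), and miR-107 at chr19:34820700-34820722 (minus strand, within Pank1). In each case the miRNA gene lay inside the span of the host gene and on its strand. Exon boundaries were not examined here.

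Of the mouse probes, 419 had a background-subtracted signal of at least 300 on at least 1 array and were called detected, and 325 had it on all 4. The mean signal of mouse probes was 1524, 1653, 1275 and 1558 on Days 2, 4, 6 and 8, and the highest negative control ranged from 93.9 to 139 between arrays. The neuronal miR-124 and miR-9 were saturated on every array. Of 15 markers of glia, blood and vessel cells, 6 were detected, and their summed signal was 3884, 4231, 2382 and 3102 on the 4 days. Within this total, again with undetected markers included, the astrocyte and mesenchymal sum ranged from 713 to 1079 and the microglia and leukocyte sum from 164 to 573. The endothelial and erythroid sum ranged from 276 to 943 and the oligodendrocyte sum from 1065 to 1969. miR-143 and miR-223, which the paper used to judge purity, stayed under 30 throughout. In the astrocyte and mesenchymal list, however, miR-214 was detected on all 4 arrays, at 548, 626, 401 and 738, and miR-21 on 2. In the oligodendrocyte list miR-338-3p was detected on all 4 arrays and miR-219-5p on 3. The leukocyte miR-142-3p and the erythroid miR-451 passed 300 on Days 2 and 4 but no longer on Days 6 and 8, and whether loss of such cells played a part in the values below was not tested. Fewer cells of a type and less RNA per cell cannot be told apart in such cultures.

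All 4 members were detected on all 4 arrays, with 4 replicate spots each, no saturated pixel and no flagged spot. The ± after a signal is the SD between these spots, which is technical. The miR-26a signal was 1024 ± 41.8, 1144 ± 50.1, 772 ± 45.7 and 931 ± 41.6 on Days 2, 4, 6 and 8. It was highest on Day 4 and lowest on Day 6. The miR-26b signal was 2411 ± 302, 2684 ± 446, 1554 ± 51.7 and 2141 ± 168 on these days, again highest on Day 4 and lowest on Day 6. The mean of all mouse probes had the same order at both ends, and these signals are before normalization.

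miR-103 gave signals of 7502 ± 1590, 8020 ± 1580, 5186 ± 879 and 6184 ± 946 on Days 2, 4, 6 and 8. Its spots differed by position. On the log2 scale after normalization the 2 spots on the first side of the array (its lower-numbered blocks) averaged 12.61, 12.55, 12.54 and 12.25 on the 4 days, and the 2 on the second side 13.06, 12.96, 12.92 and 12.64. The same sides were dim and bright on every array, so the difference of a spot from the same spot on Day 2 was far less variable than the spots themselves. miR-107 gave 1734 ± 82.5, 2027 ± 112, 1402 ± 23.1 and 1926 ± 18.9. In contrast to the other members, its Day 8 signal before normalization was above that of Day 2.

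**Figure D1:**
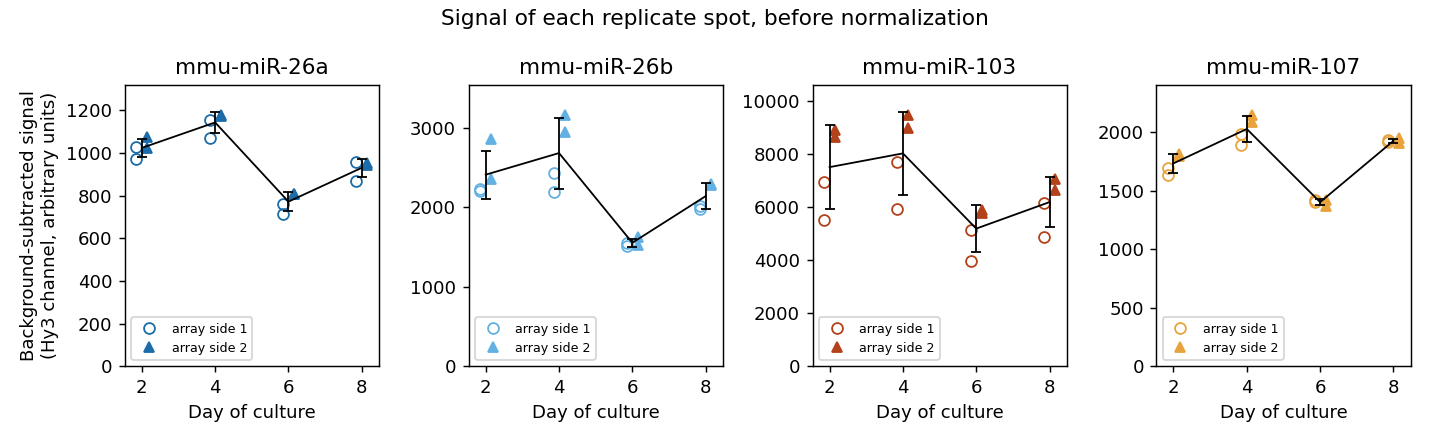
Background-subtracted signal of the Hy3 dye (y axis, arbitrary units, from 0, a separate scale for each miRNA) against day of culture (x axis). Symbols are the 4 replicate spots, open circles for the first and filled triangles for the second side of the array, and the line joins their mean with the SD. All 4 miRNAs have their lowest mean on Day 6, and the second-side spots of miR-103 lie above the first-side spots on each day.

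To follow maturation, the signal of each later day was set against Day 2 on the log2 scale (signal log ratio, SLR) after quantile normalization of the 4 arrays. The families moved little. On Day 4 the SLR was -0.01 ± 0.07 for miR-26a, -0.01 ± 0.30 for miR-26b, -0.08 ± 0.39 for miR-103 and 0.10 ± 0.09 for miR-107, where ± is the SD of a difference between unmatched spots. On Day 6 the 4 values were -0.04 ± 0.09, -0.24 ± 0.18, -0.10 ± 0.39 and 0.12 ± 0.07. By Day 8 they were -0.23 ± 0.07, -0.27 ± 0.20, -0.38 ± 0.40 and 0.09 ± 0.07. miR-26a, miR-26b and miR-103 thus lay below Day 2 on Day 8 and miR-107 above it, but with scaling by endogenous small RNA controls, the method named by the study, all 4 lay above Day 2, at 0.07, 0.16, 0.13 and 0.43. With 1 array per day there is no test of a single day against Day 2.

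The limit for a changed miRNA was an SLR beyond 0.6 in either direction. No member passed it on Day 4, when 9.07% of the 419 detected miRNAs did. None passed on Day 6, against 14.3% of all, and none on Day 8, against 22%. The counts depended on the scaling. By the median of all miRNA spots, which lies mostly among undetected spots, 4, 2 and 4 members were above 0.6 on Days 4, 6 and 8, when detected miRNAs as a whole had a median SLR of 0.75, 0.52 and 0.80. On Day 6 miR-26b reached -0.68 under spike-in controls and -0.66 in the authors' value table, and without normalization miR-26a was at -0.61 and miR-26b at -0.71. Under spike-in controls, in the value table and without normalization the median SLR of all detected miRNAs on Day 6 was also low, at -0.62, -0.40 and -0.65. The median SLR of the 4 members was -0.01, -0.07 and -0.25 on Days 4, 6 and 8, beside -0.01, -0.01 and -0.03 for all detected miRNAs. The paper lists miR-107 among its differentially expressed miRNAs and gives Axin2, Kit and Ptgs2 as its predicted targets. It states the limit of 0.6 for its gene ontology analysis, and gives no limit beside that list. Here miR-107 was at 0.10, 0.12 and 0.09 on Days 4, 6 and 8, and at 0.36, 0.34 and 0.43 under endogenous controls applied after normexp. Without scaling it was at 0.09, -0.44 and 0 after normexp, and at 0.22, -0.30 and 0.17 in the authors' value table. Endogenous scaling of plainly subtracted signals, nearer to the study's method, was not tried. Of the settings tried, miR-107 passed 0.6 only by the median of all miRNA spots, at 0.94, 0.73 and 1.05. The reason for this difference from the paper was not tested.

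Replicate spots were next compared between arrays. On Day 4 no member had spots that lay wholly above or below those of Day 2, whereas 41.5% of detected miRNAs did. On Day 6 miR-26b and miR-107 had separate spots, beside 44.2% of all, and on Day 8 so did miR-26a, miR-26b and miR-107, beside 66.1%. Spots of miR-103 overlapped on each day. When every spot was compared with the spot at the same position on Day 2, the Day 8 values ran from -0.28 to -0.20 for miR-26a, from -0.44 to -0.16 for miR-26b, from -0.50 to -0.29 for miR-103 and from 0.01 to 0.16 for miR-107. All 4 positions of a member therefore lay on one side of 0, and the SD over matched positions was 0.04, 0.12, 0.09 and 0.07. This spread covers the array surface and not the cultures.

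**Figure D2:**
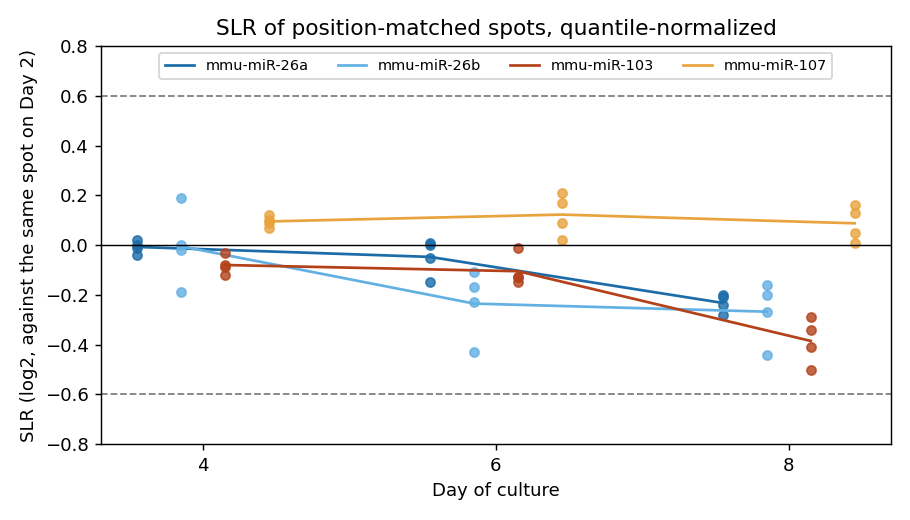
SLR (y axis, log2) of each replicate spot against the spot at the same position on the Day 2 array, by day of culture (x axis, the 4 miRNAs set side by side at each day). Points are spots, lines join their means, and dashed lines mark 0.6 and -0.6. On Day 8 the spots of miR-107 lie between 0.01 and 0.16 and those of the other 3 miRNAs between -0.50 and -0.16.

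Among the 419 detected miRNAs the members held middle ranks. On Day 8, 342 had a larger absolute SLR than miR-107, 248 a larger one than miR-26a, 229 than miR-26b and 172 than miR-103. On Day 4 the SLRs of miR-26a and miR-26b were nearer to 0 than those of 402 and 405 miRNAs. The widest displacement before Day 8 was that of miR-26b on Day 6, when 330 miRNAs had a higher SLR and 165 a larger absolute one.

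**Figure D3:**
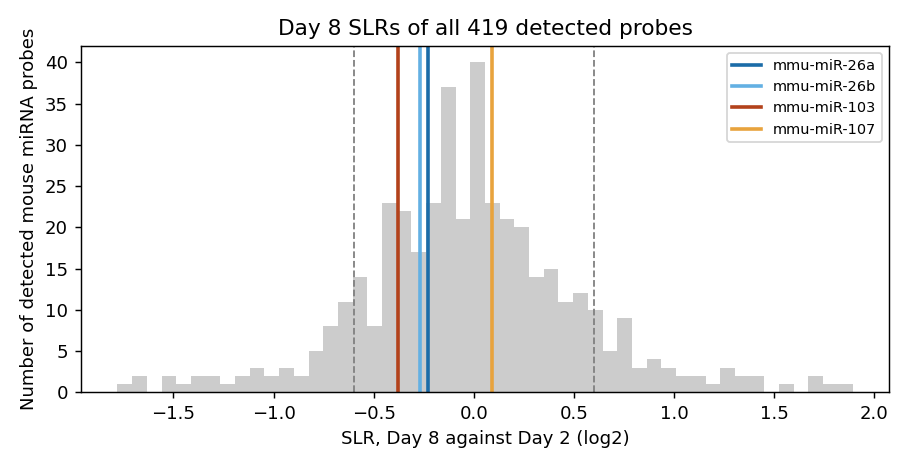
Number of detected mouse miRNA probes (y axis) by SLR of Day 8 against Day 2 (x axis, log2), with the 4 members as coloured lines and the limits of 0.6 and -0.6 dashed. The members lie at -0.38, -0.27, -0.23 and 0.09, inside both limits.

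A straight line over the day of culture was fitted with limma across all detected miRNAs. The slope per day on the log2 scale was -0.037 ± 0.02 for miR-26a, -0.052 ± 0.02 for miR-26b, -0.059 ± 0.021 for miR-103 and 0.015 ± 0.018 for miR-107 (± SE). The limma p-values adjusted over all 419 were 0.236, 0.133, 0.121 and 0.585, so that 0 of the 4 members passed 0.05. In all, 3.58% of detected miRNAs were called rising and 9.55% falling. At an unadjusted limma p under 0.05, 1 member passed, miR-103 at 0.0423, as did 157 of the 419. No member passed the adjusted threshold in any of the 19 alternatives, where the lowest adjusted limma p was 0.0994, for miR-103. A p that misses the threshold on 4 arrays does not show that a level was constant.

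The steps between neighbouring days were then measured, and their timing depended on the scaling. After quantile normalization miR-26a was within 0.04 of Day 2 until Day 6 and its step of Day 8 minus Day 6 was -0.19 ± 0.09, with separate spots on the 2 arrays. miR-103 had its main step at the same point, -0.28 ± 0.40 (0.06 over matched positions), after -0.03 for Day 6 minus Day 4. miR-26b instead had its main step at Day 6 minus Day 4, -0.23 ± 0.25, and was at -0.03 ± 0.10 for Day 8 minus Day 6. miR-107 stepped by 0.10, 0.02 and -0.03. Apart from the last step of miR-26a, the spots of neighbouring days overlapped for all 4. Under endogenous controls the SLRs on Days 4, 6 and 8 were 0.22, 0.18 and 0.07 for miR-26a, 0.32, 0.07 and 0.16 for miR-26b, 0.34, 0.23 and 0.13 for miR-103 and 0.36, 0.34 and 0.43 for miR-107. There the first step, to Day 4, was upward and the widest for each of the 4.

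The members of 1 family were then compared with each other by their SLRs. Quantile normalization adjusts each array by signal level, so a difference in brightness between 2 probes need not cancel in these values. miR-107 minus miR-103 was 0.18, 0.23 and 0.47 on Days 4, 6 and 8, with an SD over matched positions of 0.04, 0.11 and 0.11 and over unmatched spots of 0.40, 0.40 and 0.41. The SLR of miR-107 was the higher in every setting tried, but the size depended on the processing. On Day 8 the difference was 0.43 in the authors' value table, which is background-subtracted and unscaled. After normexp it was 0.30 without scaling and 0.27 under cyclic loess. Scaling by 1 factor per array cancels in this difference and left it at 0.30. On Day 4 the difference was 0.12 in the value table, and 0.02 after normexp with a single factor or none. miR-26a minus miR-26b was 0.00, 0.19 and 0.03, with matched SDs of 0.16, 0.16 and 0.13, so that this pair differed by about the spread between spots. A single day gives no test of these differences. Over the 4 days the difference changed by 0.075 per day for miR-107 minus miR-103 and by 0.014 for miR-26a minus miR-26b, with two-sided p of 0.0833 and 0.667 in an exact permutation test over all 24 orders of the days (0.167 and 0.667 after Benjamini-Hochberg adjustment over the 2 pairs), where 0.0833 is the smallest p that 4 days allow.

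The direction of each member against Day 2 depended on the scaling, while its place relative to the other miRNAs depended less on it. Endogenous controls moved the median SLR of all detected miRNAs to 0.18 on Day 8, and relative to this median miR-26a lay at -0.11, miR-26b at -0.02, miR-103 at -0.05 and miR-107 at 0.25. After quantile normalization the 4 relative values were -0.21, -0.24, -0.36 and 0.12. Over all 14 settings on Day 8, miR-26a lay between -0.24 and -0.11 from the median, miR-26b between -0.25 and -0.02, miR-103 between -0.36 and -0.05 and miR-107 between 0.07 and 0.25. The settings that apply normexp and then 1 factor per array, or none, share their relative values by construction. In the authors' value table, also unscaled but without normexp, the 4 values on Day 8 were -0.18, -0.23, -0.30 and 0.12. On Day 4 and Day 6 miR-107 was also above the median in all 14, by 0.07 to 0.21, whereas miR-103 was below it in 9 and above it in 5 on either day.

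**Figure D4:**
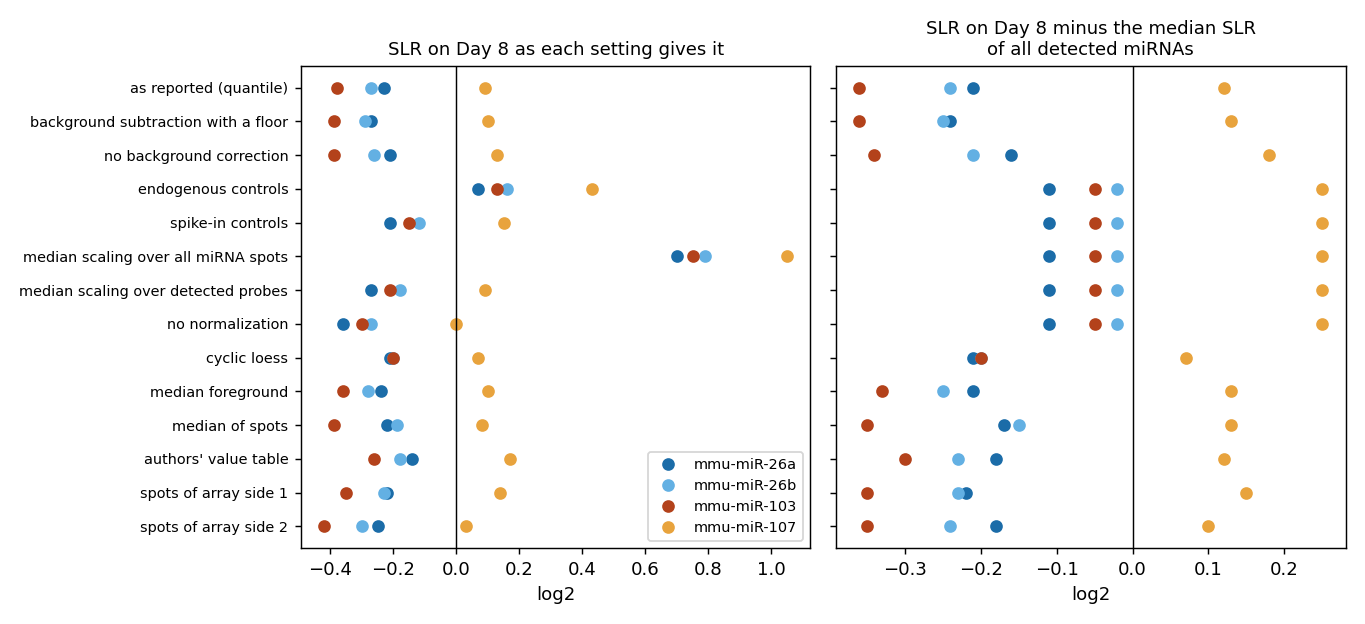
Day 8 SLR (x axis, log2) of the 4 members under the reported normalization and each alternative (rows), as each setting gives it (left) and minus the median SLR of all detected miRNAs (right). On the left miR-26a, miR-26b and miR-103 lie above 0 under endogenous controls and the median of all miRNA spots and below it elsewhere, while miR-107 is never below 0, and on the right miR-107 lies above 0 and the other 3 below it in each row.

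Opposite strands of the hairpins tell the loci of miR-26a apart, which the shared mature strand cannot. Their sequences are shown because they differ between the 2 loci, with bases 2 to 8 in capitals.
mmu-miR-26a-1-3p: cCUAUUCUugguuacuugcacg
mmu-miR-26a-2-3p: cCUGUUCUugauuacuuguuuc
Of 7 opposite-strand names, 6 were on the array and 1 was detected. This was miR-26a-2*, from the Ctdsp2 locus, with normalized log2 signals of 9.33 ± 0.06, 9.21 ± 0.12, 9.05 ± 0.10 and 8.69 ± 0.06 on Days 2, 4, 6 and 8. Before normalization it stood at 504 on Day 2 and at the detection limit on Days 6 and 8, with 303 and 299. Since Day 8 lay just under 300, its fall is given as a bound. After quantile normalization, and for that scaling only, it was at least 1.53-fold lower on Day 8 than on Day 2, with an SLR of -0.63 ± 0.08. This SLR was -0.59 under endogenous controls and turned to 0.04 under scaling by the median of all miRNA spots. It was called falling by limma (slope -0.103 per day, adjusted p = 0.0469), but in 4 of 18 alternatives alone, over which the adjusted limma p ran from 0.00829 to 0.877. Without Day 4, Day 6 or Day 8 the adjusted limma p was 0.106, 0.109 and 0.264, and without Day 8 no detected miRNA at all was called. miR-26a-1*, from the Ctdspl locus, gave signals between -20.2 and 32, and the opposite strands of miR-26b, miR-103 and miR-107 stayed below 300 on all 4 days, the brightest being miR-107* with 207 on Day 4. A further 5 probes with only human or rat names of these families, among them the antisense hsa-miR-103-as, were also below 300.

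miR-103 and miR-107 carry AGCAGC at their 5′ end, the mark of the wider miR-15/miR-107 group. A search of the mature strand as written found AGCAGC starting at position 1 or 2 in 13 of 1679 mature mouse names (0.774%), at position 1 in miR-103 and miR-107 and at position 2 in the others. Members of the group that were called by the trend test are shown with AGCAGC in capitals, to set them beside miR-103 and miR-107 above.
mmu-miR-15a-5p: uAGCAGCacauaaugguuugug
mmu-miR-15b-5p: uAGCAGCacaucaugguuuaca
mmu-miR-16-5p: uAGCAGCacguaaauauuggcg
mmu-miR-195a-5p: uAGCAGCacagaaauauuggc
Apart from miR-103 and miR-107, 7 of 8 listed names were on the array and 6 were detected. In this group miR-15b (SLR -1.20 ± 0.05 on Day 8) was the lowest and miR-195 (0.52 ± 0.15) the highest, and the median was -0.36. By limma 3 fell (miR-15a, miR-15b and miR-16, adjusted p = 0.011, 0.0102 and 0.0264) and miR-195 rose (0.0469), 3 and 1 of the 6, beside 9.55% falling and 3.58% rising among all detected miRNAs. Without Day 8 no detected miRNA at all was called by limma, so all of these calls were lost. Those of miR-16 and miR-195 were also lost without Day 4 or Day 6, and that of miR-195 without Day 2. Over 19 alternatives miR-15a passed in 13, miR-15b in 15, miR-16 in 10 and miR-195 in 7, and under endogenous controls miR-15a and miR-16 did not pass (limma, adjusted p = 0.0803 and 0.15). On Day 8 miR-107 and miR-103, at 0.09 and -0.38, lay between these 2 ends, as did miR-322 at 0.06 ± 0.24 and miR-503 at 0.37 ± 0.05.

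**Figure D5:**
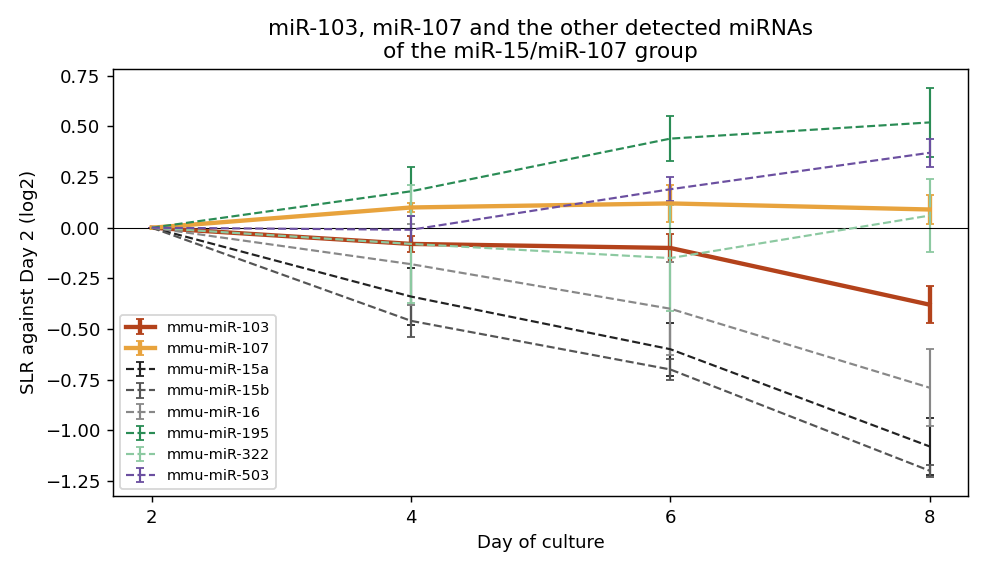
SLR against Day 2 (y axis, log2) by day of culture (x axis) for miR-103 and miR-107 (thick lines) and the 6 other detected miRNAs of the miR-15/miR-107 group (dashed). Bars are the SD over matched spot positions. On Day 8 miR-15b is lowest at -1.20 and miR-195 highest at 0.52, with miR-103 at -0.38 and miR-107 at 0.09 between them.

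Other miRNAs that lie in introns of widely used protein genes were listed for comparison, 16 of which were detected among 19 on the array. Their median SLR was -0.08, -0.11 and -0.32 on Days 4, 6 and 8, and 14 of the 16 lay below Day 2 on Day 8, as did 3 of the 4 members and 225 of all 419. Beyond 0.6 on Day 8 were 4 of the 16, all lower than on Day 2 and called falling by limma, beside 22% beyond 0.6 and 9.55% falling among all detected miRNAs. They were miR-25, miR-93 and miR-106b, which share an intron of Mcm7, and miR-32. The ends of the list on Day 8 were miR-25 at -1.78 ± 0.06 and miR-33, from an intron of Srebf2, at 0.04 ± 0.07. The limma calls of all 4 were lost without Day 8, when no detected miRNA at all was called. That of miR-32 was also lost without Day 4 or Day 6 and under endogenous controls (limma, adjusted p = 0.45, against 0.0367 as reported and 0.00488 to 0.883 over its 19 alternatives).

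The 3 miRNAs whose course was most like each member were found by the root mean square difference of the centred log2 values over the 4 days, among 305 candidates. For miR-26a these were miR-196a-1* (difference 0.015), miR-503* (0.019) and miR-298 (0.033). miR-155* (0.033), miR-149 (0.04) and miR-374 (0.041) came nearest to miR-26b. Those of miR-103 were miR-7a-2* (0.019), miR-875-3p (0.025) and miR-30e* (0.025), and those of miR-107 were miR-30b (0.019), miR-466i-3p (0.02) and miR-669f-3p (0.023). The partner from the same family was not the nearest, at 0.08 for miR-26a and miR-26b and 0.169 for miR-103 and miR-107, with 60 and 161 candidates nearer to miR-26a and miR-103. Each course has 4 points, and the order of near candidates is a description of these arrays.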

How the data were processed

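RNA of 4 pooled experiments per day was labelled with Hy3 and hybridised on 1 LNA probe array per day (miRBase 16.0 content). Spot intensity of the dye was deposited by the authors as Mapix 4.5.0 scanner output, not normalized between arrays, for 12312 spots per array. The percent of saturated pixels per spot is deposited in the same files. The deposited value table holds intensity, each value matching the average over a probe's spots of its background-subtracted median foreground (within 4.44e-06), with column medians of 73.2, 82.4, 65.8 and 81.1. It is linear, uncentred and unnormalized, and was used as an alternative.

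The mean foreground was corrected with normexp (offset 50) over all spots, and miRNA spots were quantile-normalized and averaged per probe (limma 3.58.1, R 4.3.3). Control and unnamed spots (221 identifiers) were left out of normalization, and spots flagged as not found (28.9% of miRNA spots) were kept. Detection needed a signal of 300 on at least 1 array. The trend over day used limma with 2 residual degrees of freedom and Benjamini-Hochberg adjustment (0.05, two-sided) over 419 probes, and was tested on simulated data. Its p-values measure how closely 4 pools follow a line. The difference between 2 members of a family was tested over the days by an exact permutation test. The number of arrays limits the precision. A bound on a fold was set where a probe was under 300 on 1 of 2 arrays, against the higher of its own signal and the lowest normalized signal among probes at 300 or more.

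The members and lists, and the rule for named miRNAs (the members, their opposite strands, the group and intronic lists and the 3 most alike), were chosen with earlier results of these data known. Alternatives tried were plain subtraction of the background (floor 50) or none, scaling by 15 endogenous or 33 spike-in control probes, by the median or by none, cyclic loess, the median foreground, the median of spots, the value table, other filters, and leaving out each day. Scaling by controls or by the median, no scaling and cyclic loess were each applied after normexp. Mature sequences and gene spans are from RefSeq (GRCm38.p6).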

Additional observations from a re-analysis of the deposited data

How the results depend on the processing

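No member passed the trend test in any alternative, the lowest and highest counts without 1 day both being 0. The count of members beyond 0.6 stayed at 0 except under scaling by the median of all miRNA spots, with 4, 2 and 4 members on Days 4, 6 and 8, and on Day 6 with no normalization (2), with spike-in scaling (1) and in the authors' value table (1). Scaling by the median of detected probes, chosen after seeing the data, gave -0.05, -0.08 and -0.16 and 0 members. The Day 8 difference of miR-107 minus miR-103 was 0.30 under endogenous controls, spike-in controls, either median and no normalization, and 0.27 under cyclic loess. All of these followed normexp, and the unscaled value table gave 0.43. The cause was not tested. Under the median of all miRNA spots the Day 8 SLR turned to 0.04 for miR-26a-2*, 0.12 for miR-15a, 0.18 for miR-16 and 0.46 for miR-32, and the slopes of miR-16 and miR-32 to 0.001 and 0.041. Using spots of 1 side of the array, also chosen after seeing the data, left 0 members beyond 0.6. Falling and rising calls over all miRNAs were 40 and 15 as reported, 22 and 53 under endogenous controls, 21 and 4 without normalization, 3 and 4 with spike-in scaling, 45 and 41 under cyclic loess and 0 and 0 in the value table or without Day 8. No paired analysis was possible because each day has 1 array.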
